A study of Mus musculus with 40 samples.

Results

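The genes described here encode the nuclear subunits of the mitochondrial respiratory chain and of ATP synthase, followed in mouse oocytes through 5 stages of follicle growth. They were taken by name, from probe sets with a single gene symbol of the families Nduf (complex I), Sdh (complex II), Uqcr and Cyc1 (complex III), Cycs (cytochrome c), Cox4 to Cox8 (complex IV) and Atp5 (complex V). That gave 169 probe sets of 83 genes, out of 45037 probe sets and 18193 genes with a single symbol on both array types. Complex I had 35 genes, complex II 4, complex III 9, cytochrome c 1, complex IV 17 and complex V 17. Signals were high enough to be tested for 157 probe sets and 80 genes. The other 3 genes were Cox7a1, Cox7c and Cox8b, whose signals reached at most 63.4, 95.2 and 71.7 on any array. A further 9 probe sets that carry a member's symbol beside another symbol were left out, and the subunits encoded by mitochondrial DNA fall outside the naming rule.

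The respiratory chain passes electrons from NADH, through complex I, and from succinate, through complex II, to complex III, cytochrome c and then oxygen at complex IV. Complexes I, III and IV move protons across the inner mitochondrial membrane, and complex V lets them back to make ATP. The growing oocyte is rich in mitochondria and relies on oxidative phosphorylation of pyruvate, much of it supplied by the surrounding granulosa cells. A few genes matched by name are placed elsewhere by current knowledge: Ndufa4 is counted with complex IV, Cox7a2l is known as a factor of respiratory supercomplexes, and Ndufa4l2 is a relative of Ndufa4.

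Oocytes came from females of the SJLB6 background, with no treatment or transgene named in the labels. Primordial follicle oocytes were taken at 2 days of age in pools of 400, primary at 6 days in pools of 90 and secondary at 12 days in pools of 60. Small antral oocytes were taken at 17 days in pools of 30, and large antral oocytes at 24 days in pools of 20. For 3 of the 8 small antral samples, replicates 2 to 4 on 430B, the protocol text instead names 12 days and pools of 60, as at the secondary stage. They were kept as small antral by their titles. Each stage had 4 replicates on each of 2 Affymetrix array types, 430A and 430B, 40 samples in all. Mouse age and pool size changed with every stage, so stage, age and pool size cannot be told apart. The labels do not say which animals a replicate came from, and the p-values rest on sample-to-sample spread that may be technical.

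Signals are given with the trimmed mean of every array set to 500, so a level is relative to the total signal of its array and the amount of RNA per oocyte was not measured. The deposited columns of primordial replicates 2 to 4 had the form of means with replicate 1. When each was doubled and replicate 1 subtracted, 0 of 22526 values on 430A and 0 of 22411 on 430B came out below 0, whereas the 48 ordered pairs of arrays within other stages gave at least 1120 and 1989 values below 0. Primordial values are therefore given as deposited and as unmixed by that formula, and the 4 comparisons among growing stages were fitted on 16 arrays without the primordial stage. The spread of the deposited primordial columns is not that of independent replicates. Every p-value and call from primordial to primary with deposited values can therefore look stronger than the data allow. The summed signal of 10 oocyte markers was 54306 to 70223 on the primordial, 114394 to 119754 on the primary, 117664 to 130769 on the secondary, 107380 to 120952 on the small antral and 81689 to 90779 on the large antral arrays. Of the 12 granulosa cell markers, 11 had a probe set with a single symbol and 10 were tested. Amh and Cyp19a1 were the ones not tested, so low signal is not the reason for both. The summed signal of the 10 tested markers ran from 3114 to 5272 over all arrays.

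Across the growing stages the chain's transcripts moved down more often than up. From the primary to the large antral stage 35 of the 80 genes fell and 8 rose, and the median log2 change was -0.23 (limma, Benjamini-Hochberg adjusted p under 0.05; fold changes are on the log2 scale after adding 32 to the signal, which understates changes of low genes). Of all genes tested with 1 probe set each, 18.2% fell and 18.1% rose in that comparison, with a median of 0.02. By complex, the falls were 17 of 35 genes in complex I, 2 of 4 in complex II, 4 of 9 in complex III, 6 of 14 in complex IV and 6 of 17 in complex V. The rises were 1 gene in complex I (Ndufs5), 2 in complex III (Uqcrq and Uqcr10), Cycs, 2 in complex IV (Cox5a and Cox6a2) and 2 in complex V (Atp5g2 and Atp5k). Without primary replicate 1, or without large antral replicate 1, 5 members rose in place of 8. Over the same comparison 7 of 10 oocyte markers fell and 2 rose, with a median log2 change of -0.51. Meanwhile 3 of 9 tested granulosa cell markers and 3 of 3 endothelium markers rose and none of either list fell. The summed granulosa signal was 3684 to 5030 on the primary and 4552 to 5272 on the large antral arrays, and the summed endothelium signal was 381.7 to 518.6 and 656.1 to 803.5. The log2 ratio of the 3′ to the 5′ control probe set of Actb, a measure of how complete the labelled copies are, was 2.28 to 2.47 at the secondary, 2.43 to 3.22 at the small antral and 2.57 to 4.16 at the large antral stage, and the primary stage has no such value on 430A. The part of the markers and of this ratio in the members' changes was not tested.

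**Figure D1:**
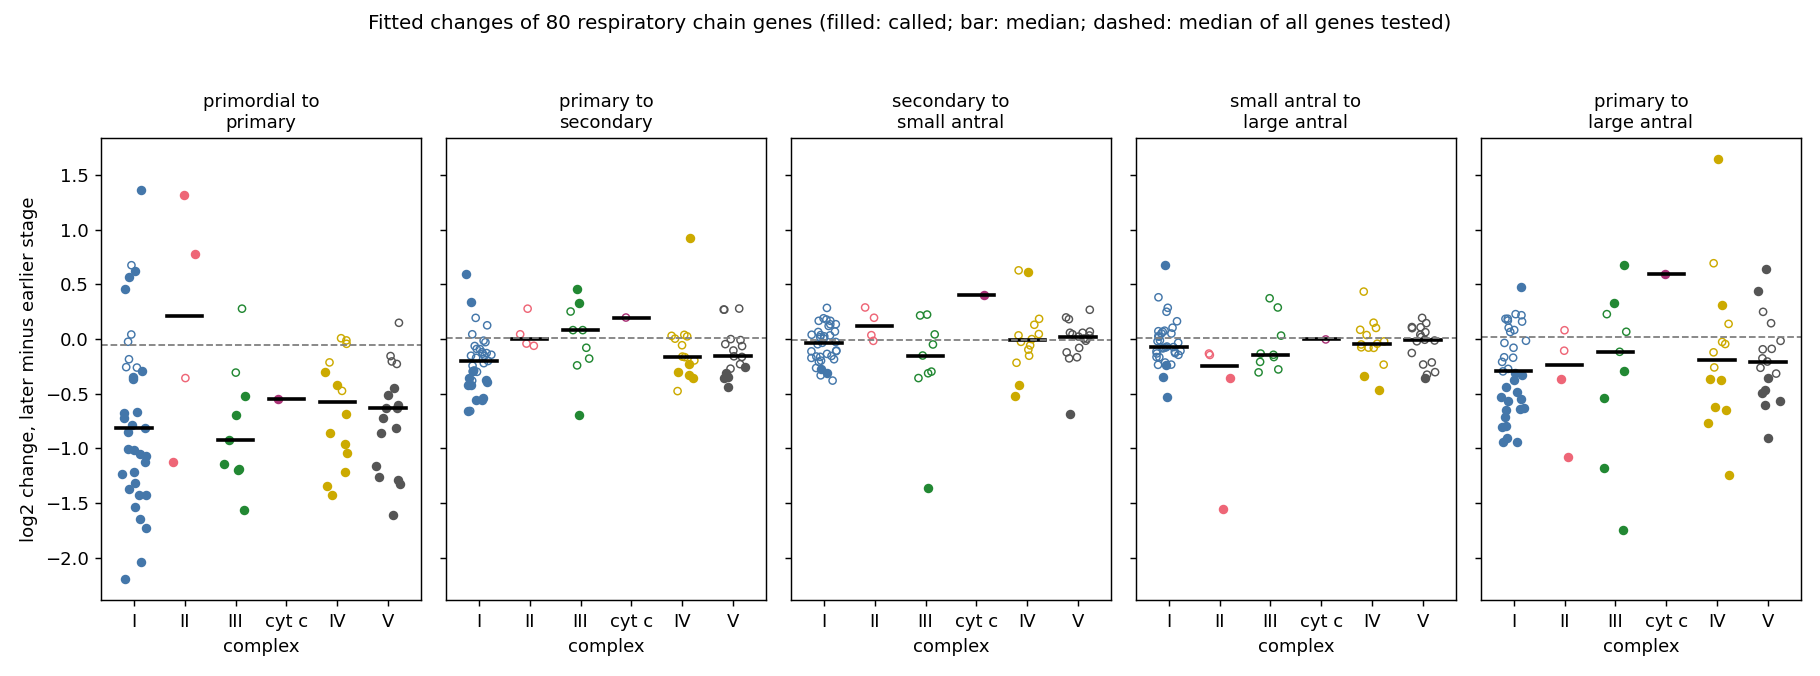
Fitted log2 change of each of the 80 tested genes, later minus earlier stage, in the 5 comparisons and by complex. Filled points passed the test, black bars are medians of a complex and dashed lines the median of all genes tested. Primordial values are as deposited. Most of complexes I, III, IV and V lie below the dashed line from primordial to primary, and the points draw together around it in the later steps. With unmixed primordial values, not drawn, 9 of 17 complex V genes were below 0 in the first step, with a median of -0.04.

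Step by step, the largest share of calls among growing stages came between the primary and the secondary stage, where 20 members fell and 5 rose with a median of -0.15. Of all genes tested 7.11% fell and 10.6% rose in that step. Leaving out primary replicate 2 gave 13 falls in place of 20, and leaving out any of primary replicates 1 to 3 or secondary replicates 1 and 4 gave 3 rises in place of 5. From secondary to small antral 6 members fell and 2 rose, against 9.64% and 6.19% of all genes, which is near the background. Without secondary replicate 2, secondary replicate 3 or small antral replicate 2 there was 1 rise, Cycs, because the call of Cox6a2 was lost. From small to large antral 8 members fell and 1 rose, against 5.22% and 3.31% of all genes. That count of falls was 5 without large antral replicate 2 and 4 without large antral replicate 3. In a fit that added the unmixed primordial arrays, 4 members fell and 1 rose from primary to secondary. From primary to large antral 24 fell and 2 rose. Over all 15343 genes of that fit, 442 fell and 635 rose in the first comparison, and 1954 fell and 1868 rose in the second. Calls were thus fewer than without these arrays over all genes as well as among the members.

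Few members were called at more than 1 step. Cox6c alone fell in all 3 consecutive growth steps, while Atp5g3, Ndufa1 and Ndufa4 fell in 2. Cox6a2 was the single member that rose in 2 steps. The means fell at each of the 3 steps for 24 genes and rose at each for 6, namely Uqcr10, Uqcrq, Cox5a, Cox6a2, Atp5g2 and Atp5k. For 30 genes neither a step nor the primary to large antral change was called. Such courses were not counted over all genes, so the counts in this paragraph describe the members and do not set them apart from other genes.

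**Figure D2:**
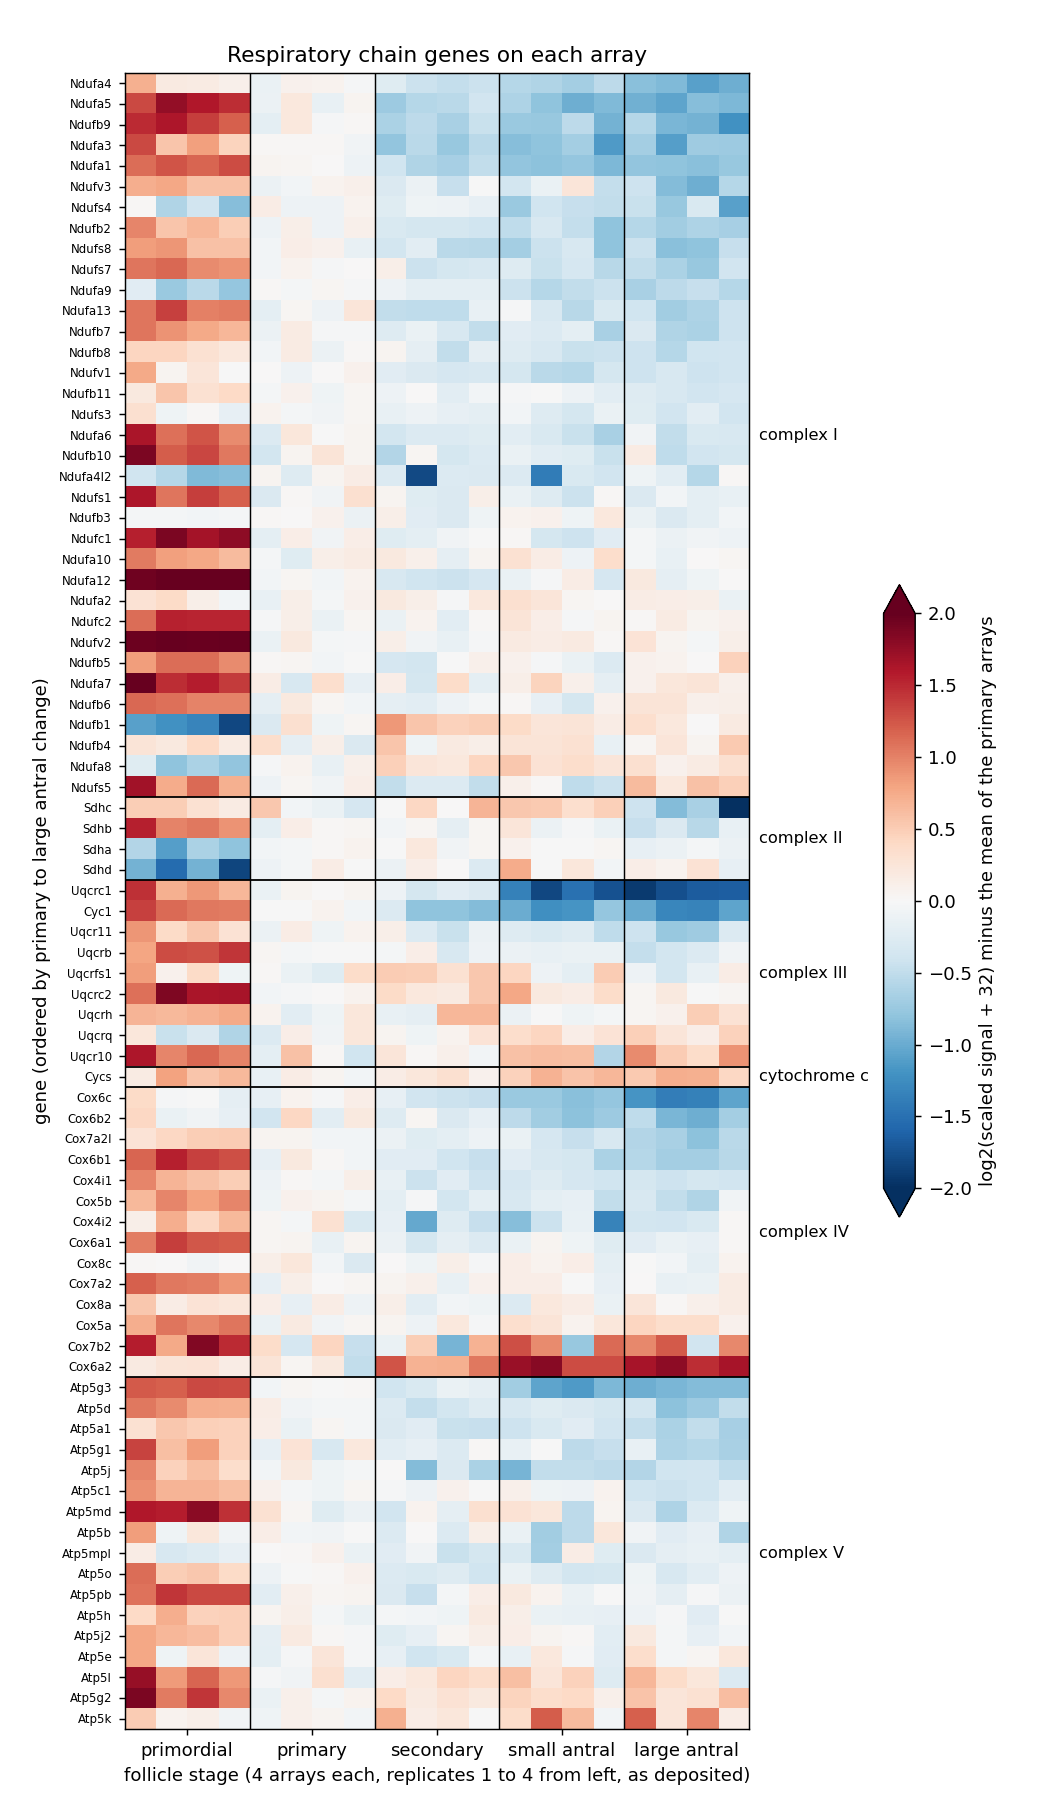
Signal of each tested gene on each of the 20 arrays of its type, as log2(scaled signal + 32) minus the mean of the 4 primary arrays, with genes grouped by complex and ordered by their primary to large antral change. Red is above and blue below the primary mean. The primordial columns are the values as deposited, and 63 of the 80 genes have their highest stage mean there. The share of all genes with their highest mean there was not counted.

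Between the primordial and the primary stage, with the values as deposited, 56 of 80 members fell and 6 rose, with a median of -0.71. Of all genes tested 23.5% fell and 25.3% rose, with a median of -0.05. With unmixed primordial values 39 members fell and 11 rose, with a median of -0.50, against 18.3% and 23.4% of all genes. In the same step 1 of 4 tested theca, stroma and fibroblast markers fell as deposited, with summed signals of 853.3 to 1213.2 on the primordial and 491.9 to 757.0 on the primary arrays. Of 4 tested surface epithelium markers 2 fell and 1 rose, with a median of -0.99 and summed signals of 555.3 to 767.7 and 432.1 to 673.7. The part of these lists in the members' changes was not tested. There were 38 members that fell in both forms, and 8 members called as falls with the deposited values had a change above 0 with the unmixed ones. With each array scaled to the same median the shift of all genes was 0.14 in place of -0.05, 4805 genes rose and 2578 fell in place of 3900 and 3628, and 8 members rose and 51 fell.

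Complexes differed in how far the unmixing moved them. On primordial replicate 1, an array the formula does not touch, the median member lay 0.87 above the primary mean on the log2 scale. On the unmixed arrays of replicates 2, 3 and 4 it lay 0.39, 0.44 and 0.11 above. For complex IV the 4 values were 0.59 for replicate 1 and then 0.47, 0.70 and 0.66, so all 4 primordial arrays stood above the primary ones. For complex V they were 0.98, -0.30, 0.33 and -0.50, so the unmixed arrays of replicates 2 and 4 lay below the primary mean. The log2 ratio of the 3′ to the 5′ control probe set of Actb was 1.77 for primordial replicate 1 and 5.94, 3.03 and 6.24 for the unmixed replicates 2 to 4. Its part in the primordial values was not tested.

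**Figure D3:**
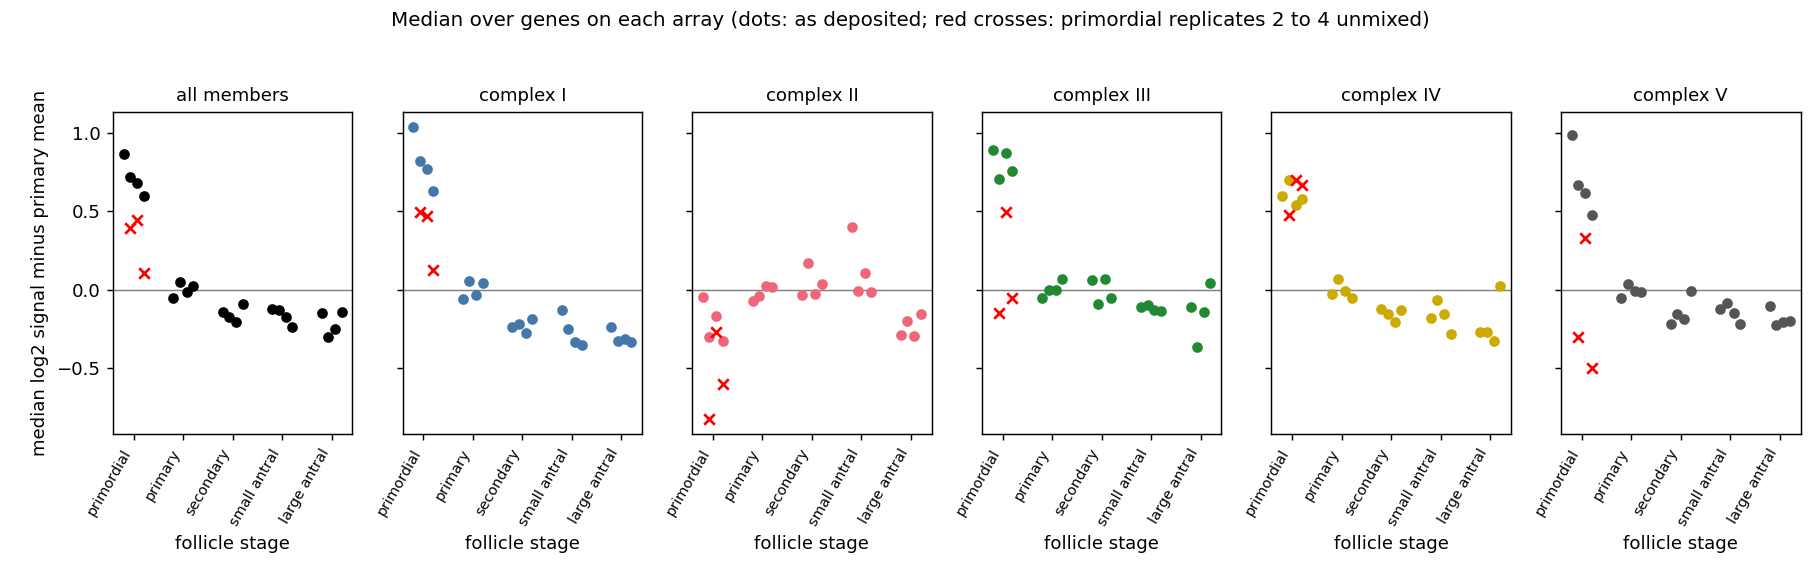
Median over the genes of a complex on each array, as log2 signal minus the mean of the 4 primary arrays. Dots are values as deposited and red crosses are primordial replicates 2 to 4 after unmixing. For complex V the crosses of replicates 2 and 4 lie at -0.30 and -0.50, whereas for complex IV all 3 crosses lie between 0.47 and 0.70.

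Complex I oxidises NADH at its matrix arm and reduces ubiquinone. Its NADH-binding flavoprotein subunit Ndufv1 gave signals of 2799.8, 2600.1, 2797.7 and 2949.8 at the primary stage and 2092.5, 2227.6, 2084.2 and 2137.9 at the large antral stage. All primary values lay above all large antral values, and the fall was 1.30-fold (log2 change -0.38, SE 0.08, adjusted p = 0.00059). The iron-sulphur subunit Ndufs1 had 713 ± 133 at the primary and 623.1 ± 44.6 at the large antral stage (SD, n = 4), stages that overlapped (log2 change -0.17, adjusted p = 0.34). Ndufv2, another iron-sulphur subunit of that arm, gave 7568.7, 8653.7, 7588.7 and 7969.5 as deposited at the primordial stage and 1749.9, 2201.4, 1852.4 and 1873.3 at the primary stage. Every primordial value was at least 3 times as high as every primary value. The fall was 4.10-fold (log2 change -2.04, adjusted p = 8.8e-15), and with unmixed values the log2 change was -2.13. After that drop Ndufv2 stayed between 1717.4 and 2313.5 on all later arrays.

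The accessory subunits of complex I, small proteins around the catalytic core, split into several courses. Ndufa12 had the largest fall from primordial to primary: 5388.3, 6769.7, 7012.4 and 6734.5 became 1332.1, 1417.4, 1336.3 and 1444.7, 4.58-fold lower (log2 change -2.20, SE 0.11, adjusted p = 2.7e-14; unmixed -2.43). Ndufc1 fell 3.30-fold in the same step, from 4133.0, 5195.5, 4489.0 and 4894.1 to 1203.5, 1526.5, 1326.4 and 1524.0 (adjusted p = 1.8e-12; unmixed log2 change -1.90). In neither gene did the stages overlap, and neither changed by test from primary to large antral. Ndufb1 went the other way and rose 2.56-fold, from 454.3, 414.9, 384.4 and 262.8 to 818.1, 1262.7, 947.9 and 1037.2 (adjusted p = 1.7e-08; unmixed log2 change 1.78). It rose again to 1854.0, 1490.1, 1390.9 and 1420.7 at the secondary stage, with no overlap (1.51-fold, adjusted p = 0.0019), and then lay between 1007.4 and 1326.4 at the antral stages. Ndufa8 rose in the same 2 steps, from 1584 ± 310 to 2424 ± 183 and then 3083 ± 278 (SD, n = 4; adjusted p = 5.4e-05 and 0.012).

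Several genes counted here by name with complex I fell as the oocyte grew. Ndufa3 signals were 2469.9, 2457.9, 2446.9 and 2301.9 at the primary stage, 1391.1, 1650.9, 1415.4 and 1652.5 at the secondary stage and 1504.1, 1113.7, 1470.0 and 1451.5 at the large antral stage. The drop came in the first of these steps, where no values overlapped (1.58-fold, adjusted p = 0.00026), and a second probe set of Ndufa3 on 430A fell too (log2 change -0.47, adjusted p = 0.0033). From primordial to primary Ndufa3 fell as deposited (log2 change -0.79, adjusted p = 5.2e-05) but not after unmixing (0.35, adjusted p = 0.47). Ndufb9 signals were 1845.1, 2471.5, 2079.6 and 2150.4 at the primary, then 1365.9, 1475.5, 1340.0 and 1555.6 at the secondary stage (1.47-fold lower, adjusted p = 0.0032), and 1131 ± 215 at the large antral stage (SD, n = 4). Ndufa4 and Ndufa5 fell from primary to large antral by 0.94 each on the log2 scale (adjusted p = 6.1e-08 and 6e-07). Ndufa1 fell by 0.80 (adjusted p = 9.9e-09), with arrays near 5259 ± 130 at the large antral stage against 9170 ± 435 at the primary stage.

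Ndufs5 was the 1 member that rose between the antral stages. Its signals were 375.7, 353.3, 234.3 and 248.9 at the small antral and 558.6, 404.8, 535.9 and 494.0 at the large antral stage, with no overlap (1.60-fold, log2 change 0.68, SE 0.15, adjusted p = 0.0048). The primary arrays, at 322.9 to 385.6, overlapped the upper small antral ones, and the rise from primary to large antral was 1.39-fold (adjusted p = 0.012). The probe set that reads Ndufs5 together with a pseudogene symbol was left out by the rule.

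Complex II, succinate dehydrogenase, also works in the citric acid cycle. Its catalytic flavoprotein Sdha and its membrane anchor Sdhd rose from primordial to primary, by the probe sets that represent them. Most called members of the other complexes fell in that step. Sdhd went from 668.8, 433.0, 668.0 and 349.1 to 1230.6, 1282.5, 1475.5 and 1310.0, with no overlap (2.49-fold, log2 change 1.32, adjusted p = 8.4e-07; unmixed 2.13). Sdha went from 2933.5, 2044.1, 2826.1 and 2498.9 to 4251.9, 4297.8, 4458.7 and 4604.8, again with no overlap (1.72-fold, log2 change 0.78, adjusted p = 2.2e-07; unmixed 1.01). A second probe set of Sdhd did not follow (log2 change -0.15, adjusted p = 0.42). Sdha also has further tested probe sets, whose change in this step is not given here. With the mean of all probe sets of a gene, the median of complex II in this step was -0.047 in place of 0.211. The iron-sulphur subunit Sdhb fell as deposited, from 4198 ± 924 to 1883 ± 183 (SD, n = 4; 2.18-fold, adjusted p = 6.2e-08), and the unmixed fall of 0.47 on the log2 scale missed the threshold (adjusted p = 0.10).

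During growth complex II showed its calls late. Sdhc, the second membrane anchor, gave 850.7, 837.8, 727.9 and 811.4 at the small antral stage and 421.5, 298.1, 351.7 and 84.6 at the large antral stage. The 2 stages did not overlap, and the fall was 2.93-fold (log2 change -1.55, SE 0.29, adjusted p = 0.002). The other probe set of Sdhc showed 0.18 in that step (adjusted p = 0.48). Sdhb fell from 2232.0, 1720.6, 1855.0 and 1707.8 to 1354.4, 1535.0, 1265.0 and 1695.2, with the highest large antral value just under the lowest small antral one (1.28-fold, adjusted p = 0.041). That call was lost without small antral replicate 1 (log2 change -0.27), small antral replicate 3 (-0.36), or large antral replicates 1 (-0.32), 2 (-0.38) or 3 (-0.29).

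Complex III passes electrons from ubiquinol to cytochrome c. It held the largest fall of any member during growth. Uqcrc1, a core protein of the complex, gave 1288.5, 1468.9, 1416.0 and 1471.4 at the primary and 1313.0, 1103.6, 1201.9 and 1142.3 at the secondary stage. At the small antral stage it gave 533.9, 375.4, 478.4 and 400.6, and at the large antral stage 348.9, 395.2, 425.0 and 427.9. The drop fell in a single step, secondary to small antral, where every earlier value was over 2 times every later one (2.57-fold, log2 change -1.36, SE 0.11, adjusted p = 6.6e-08). From primary to large antral it was 3.35-fold lower (log2 change -1.75, adjusted p = 1.8e-10). Uqcrc1 has 1 probe set on these arrays, so no second reading stands beside it. Its fall from primordial to primary as deposited (log2 change -0.93) was 0.13 above 0 after unmixing (adjusted p = 0.77). The unmixed primordial arrays, at 4031.4, 797.1, 1339.4 and 680.9, lay above, among and below the primary ones.

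Cyc1 encodes cytochrome c1, the haem subunit that hands the electron on. Its signals were 1893.4, 1894.7, 1984.7 and 1814.4 at the primary stage and 1557.2, 1066.2, 1074.0 and 1025.5 at the secondary stage, a 1.61-fold fall with no overlap (log2 change -0.69, SE 0.13, adjusted p = 0.00073). Secondary replicate 1 stood above its 3 fellows. At the small antral stage the signals were 933.1, 792.8, 816.8 and 1091.4, and at the large antral stage 924.0, 745.9, 731.1 and 892.1, so that primary to large antral was 2.27-fold lower (adjusted p = 3e-07). Cyc1 also fell 2.21-fold from the primordial to the primary stage, where the 4 primordial values were 3935.5 to 4938.1 (log2 change -1.15, adjusted p = 4e-08; unmixed -0.92).

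The Rieske iron-sulphur protein Uqcrfs1 showed no lasting change: 1115 ± 218 at the primary, 1528 ± 112 at the secondary and 1021 ± 155 at the large antral stage (SD, n = 4). Its called rise from primary to secondary had overlapping arrays (1.37-fold, adjusted p = 0.045) and was lost without any of primary replicates 1 to 3 or secondary replicates 1, 2 and 4 (log2 changes 0.38 to 0.46). The small subunits Uqcr10 and Uqcrq rose from primary to large antral by 0.68 and 0.33 on the log2 scale (adjusted p = 0.026 and 0.028), both with overlapping arrays.

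Cycs encodes the cytochrome c of somatic tissues, the mobile carrier between complexes III and IV, and the probe set that represents it rose during growth. Its signals were 3293.3, 4050.8, 3778.3 and 3523.7 at the primary stage and 4058.1, 4254.8, 4577.6 and 3886.4 at the secondary stage, which overlap. The small antral arrays, at 5020.3, 5922.3, 5432.7 and 5805.9, all stood above the secondary ones (1.32-fold, log2 change 0.40, SE 0.09, adjusted p = 0.0032). The large antral arrays gave 5249.6, 6068.6, 5984.5 and 4858.1, which is 1.51-fold above primary (adjusted p = 1.7e-05). By this probe set Cycs moved opposite to Cyc1 and Uqcrc1, its partners in complex III, in the primary to large antral comparison. Its 4 tested probe sets did not agree from secondary to small antral, where another was called as a fall.

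**Figure D4:**
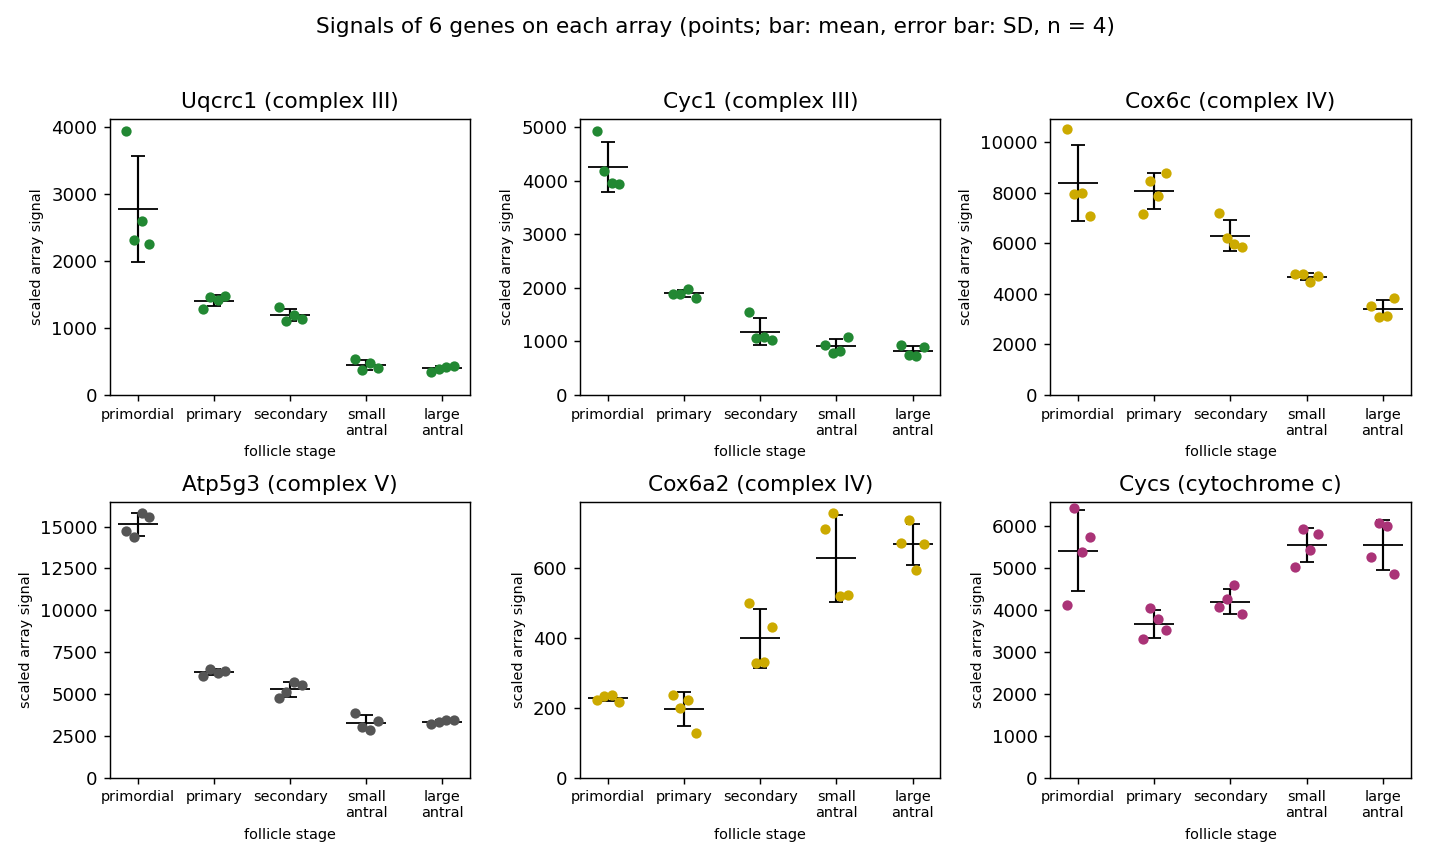
Scaled array signal of Uqcrc1, Cyc1, Cox6c, Atp5g3, Cox6a2 and Cycs at the 5 stages, with 1 point per array as deposited, the mean and the SD (n = 4). The small and large antral points of Uqcrc1 lie between 348.9 and 533.9, below every earlier point. Those of Cox6a2 lie between 518.8 and 756.1, above every earlier point.

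Complex IV, cytochrome c oxidase, reduces oxygen to water, and several of its nuclear subunits exist as isoforms used in different tissues. Cox6c, a subunit with a single isoform, fell in every growth step. Its signals were 7152.5, 8473.9, 7887.5 and 8788.7 at the primary and 7195.7, 6193.2, 5989.7 and 5837.3 at the secondary stage, with 1 secondary array above the lowest primary one. They were 4776.2, 4792.4, 4475.2 and 4700.0 at the small antral and 3539.4, 3079.3, 3129.3 and 3847.3 at the large antral stage. The steps were 1.28-fold, 1.34-fold and 1.38-fold (adjusted p = 0.0066, 0.0018 and 0.002), and 2.37-fold over all (log2 change -1.24, SE 0.09, adjusted p = 6.2e-10). A second probe set of Cox6c fell less over all (log2 change -0.37, adjusted p = 0.036), and its change in the last 2 steps was 0.02 and 0.20.

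The isoforms of subunit VIa moved differently from each other. Cox6a1, the form of most tissues, fell 2.32-fold from primordial to primary, from 16486.7, 21179.4, 19180.7 and 18919.3 to 8355.0, 8408.8, 7369.7 and 8440.7 (adjusted p = 6.8e-11; unmixed log2 change -1.41). It then stayed between 6350.1 and 8488.7. Its called fall from primary to secondary (1.17-fold, adjusted p = 0.047) had overlapping arrays and was lost without primary replicate 1, 2 or 4 or secondary replicate 2, 3 or 4 (log2 changes -0.19 to -0.25). Cox6a2, known as the heart and muscle form, had the largest rise of any member during growth by the probe set that represents it. It gave 235.0, 197.3, 222.8 and 127.3 at the primary, 499.7, 327.6, 331.5 and 431.2 at the secondary, 708.8, 756.1, 518.8 and 520.2 at the small antral and 670.6, 735.6, 591.7 and 665.9 at the large antral stage. No values overlapped at the first 2 steps, which were 1.90-fold and 1.53-fold (adjusted p = 0.00061 and 0.015), and primary to large antral was 3.12-fold (log2 change 1.64, SE 0.17, adjusted p = 1.4e-07). The call of the second step was lost without secondary replicate 2 (log2 change 0.54), secondary replicate 3 (0.54) or small antral replicate 2 (0.52). The primordial arrays of Cox6a2, 216.6 to 236.6, overlapped the primary ones. Another tested probe set of Cox6a2, on 430B, had a mean signal of 155.7 over all arrays, and its course is not given here.

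Subunit VIb has a general form, Cox6b1, and a form known from testis, Cox6b2, and both fell. Cox6b1 signals were 3830.1, 4890.1, 4347.6 and 4112.7 at the primary and 2880.4, 2656.3, 2664.0 and 2914.6 at the large antral stage, 1.53-fold lower with no overlap (adjusted p = 2.4e-05). Its fall from primary to secondary (log2 change -0.33, adjusted p = 0.02) was lost without primary replicate 2 (-0.26), secondary replicate 3 (-0.30) or secondary replicate 4 (-0.28). Cox6b2 gave 399.6, 717.6, 456.2 and 613.2 at the primary, 441.1, 549.6, 429.3 and 474.6 at the secondary and 362.5, 316.5, 288.1 and 309.7 at the small antral stage. The step from secondary to small antral had no overlap (1.44-fold, log2 change -0.52, adjusted p = 0.024), and its call was lost without secondary replicate 2 (-0.46) or small antral replicate 3 (-0.48). From primary to large antral Cox6b2 fell 1.70-fold (adjusted p = 0.00047).

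The remaining isoform groups of complex IV held both called and uncalled genes. Cox4i1, the general form of subunit IV, fell from 4813 ± 318 at the primary to 3698.3 ± 83.1 at the large antral stage (SD, n = 4; 1.30-fold, adjusted p = 0.00057), while Cox4i2, known from lung and low oxygen, had 257.9 ± 50.6 and 208.9 ± 33.8 (adjusted p = 0.40). Cox7a2 stood between 5793.9 and 7339.9 on every array after the primordial stage, and Cox7a2l fell from 6217 ± 274 to 3963 ± 325 (1.57-fold, adjusted p = 1.4e-06). Cox8a and the testis form Cox8c ended at 1070.6 ± 71.3 and 720.4 ± 55.4 at the large antral stage, with arrays that overlapped the primary ones, and neither passed the test (adjusted p = 0.38 and 0.79). Cox7b2, read on 430B, had 41.4 to 105.4 at the primary and 46.0 to 205.6 at the large antral stage, near the limit of the filter (adjusted p = 0.46). The core-associated subunits Cox5a and Cox5b went apart from primary to large antral: Cox5a rose 1.24-fold and Cox5b fell 1.29-fold (adjusted p = 0.01 and 0.0054), both with overlapping arrays. Both had fallen from primordial to primary, by 0.96 and 0.86 on the log2 scale as deposited and by 1.18 and 1.06 after unmixing (adjusted p = 2.2e-08 and 3.9e-07 as deposited).

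Complex V makes ATP in its F1 head, turned by a ring of c subunits in the membrane. The catalytic beta subunit Atp5b lay at 2358 ± 150 at the primary and 1975 ± 303 at the large antral stage (SD, n = 4), and no comparison of the deposited values called it. Its primordial values were 4224.9, 2221.5, 2765.7 and 2239.8 as deposited. Unmixed, replicates 2 to 4 gave 299.3, 1391.9 and 358.2, so that replicate 1 stood above every primary array and the other 3 below all of them, and the fitted change of 1.36 (adjusted p = 0.026) averages unlike arrays. The alpha subunit Atp5a1 gave 6705.6, 5579.0, 6336.6 and 5989.3 at the primary and 4398.3, 3951.0, 4355.0 and 3882.1 at the large antral stage, 1.48-fold lower with no overlap (adjusted p = 7.7e-06).

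The c subunit is made from 3 genes, known to give the same mature protein with different import sequences, and their transcripts took different courses. Atp5g3 fell from 14737.1, 14396.5, 15823.5 and 15568.4 at the primordial to 6064.0, 6458.9, 6234.1 and 6385.9 at the primary stage, 2.40-fold (adjusted p = 1.9e-11; unmixed log2 change -1.33). It stood at 4753.0, 5082.7, 5717.0 and 5518.1 at the secondary stage and at 3849.4, 3024.8, 2844.6 and 3358.7 at the small antral stage, a further 1.61-fold fall with no overlap (adjusted p = 1e-05). The large antral arrays, 3180.6 to 3431.1, overlapped the small antral ones. The smaller step from primary to secondary (log2 change -0.26, adjusted p = 0.042) was lost in 7 of the 8 fits that left out 1 array of these stages (-0.21 to -0.28). Atp5g1 fell from 929.2, 1271.3, 832.2 and 1217.4 at the primary to 945.1, 672.2, 693.4 and 656.0 at the large antral stage, with 1 large antral array among the primary ones (1.41-fold, adjusted p = 0.011). Atp5g2 rose from 1200.2, 1429.6, 1292.4 and 1390.1 to 1988.7, 1579.0, 1637.5 and 2044.4 over the same interval with no overlap (1.35-fold, adjusted p = 0.0022). For Atp5g1 and Atp5g2 the deposited falls from primordial to primary (log2 changes -0.81 and -1.33) were 0.38 and 0.07 after unmixing. The unmixed primordial arrays were 2789.9, 555.7, 1117.1 and 232.5 for Atp5g1 and 5097.0, 609.1, 2353.0 and 352.8 for Atp5g2. They lay both above and below the primary arrays, so these fitted changes average unlike arrays and give no clear direction.

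Atp5k, subunit e of the membrane part, rose by the test from 2919.4, 3330.9, 3216.6 and 2998.8 at the primary to 7193.1, 3692.6, 6171.1 and 3445.3 at the large antral stage (1.56-fold, log2 change 0.64, SE 0.23, adjusted p = 0.03). Large antral replicates 1 and 3 were well above replicates 2 and 4, as was 1 of the 4 small antral arrays (7247.7, against 2996.2 to 4821.8). The call was lost without primary replicate 1 (0.61) or 4 (0.63) or large antral replicate 1 (0.46) or 3 (0.53). Of 2 further probe sets of Atp5k, 1 rose too (log2 change 0.46, adjusted p = 0.0083) and the other showed 0.09 (adjusted p = 0.62).

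Where a gene has several probe sets, they did not always move together. For the members called from primary to large antral, 37 of 49 further tested probe sets had the same sign, 19 were called in the same direction and 0 in the opposite one. For those called from primordial to primary the numbers were 53 of 66, 38 and 5. The opposite calls concerned Atp5h, Cycs, Ndufb11 and Ndufs4 from primordial to primary and Cycs from secondary to small antral. The probe sets of Sdha went apart from primary to large antral. The one that represents the gene was not called (log2 change -0.11, adjusted p = 0.25, primary to large antral), whereas a second on 430A fell by 1.72 (adjusted p = 1.1e-08), most of it from secondary to small antral (-1.22). For Cycs, a second probe set rose by 0.67 from primary to large antral (adjusted p = 7.7e-06), while another fell by 0.70 from secondary to small antral (adjusted p = 0.0058). For Uqcr10 and Cox5a a second probe set rose more than the first from primary to large antral, by 1.87 and 0.91 (adjusted p = 6.1e-06 and 0.0017). What the probe sets of a gene read differently, such as alternative ends or related transcripts, was not tested.

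**Figure D5:**
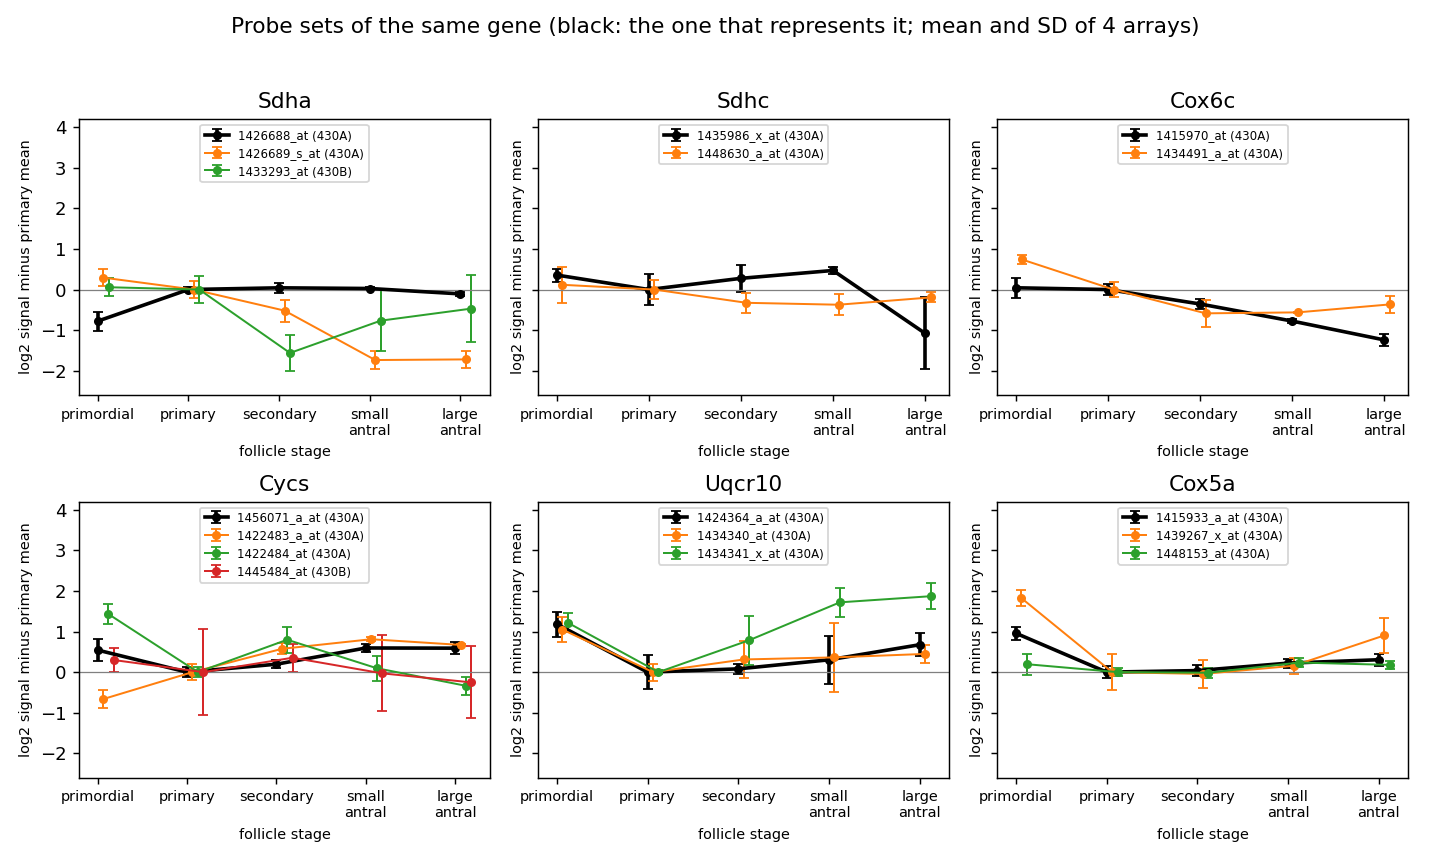
Probe sets of 6 genes by stage, as log2 signal minus the mean of the 4 primary arrays of the same probe set, with the mean and SD of 4 arrays as deposited. The probe set that represents the gene is black. For Sdha the black line stays near 0 after the primary stage while another probe set ends 1.72 lower, and for Uqcr10 another ends 1.87 higher.

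Genes that build or feed the chain were described from lists chosen with the same results in view. Of 41 tested assembly factors, 12 fell and 10 rose from primary to large antral, with a median of 0.00, where 18.2% of all genes fell and 18.1% rose. In the fit with unmixed primordial arrays 9 of these factors fell and 5 rose. The lists of biogenesis, cycle and exchange genes described next had 5, 2 and 3 falls and 0, 2 and 1 rises there. Over all 15343 genes of that fit, 1954 fell and 1868 rose. Surf1, needed to assemble complex IV, fell by 0.62 on the log2 scale (adjusted p = 2.4e-06), and Tmem70, needed for ATP synthase, rose by 1.16 (adjusted p = 7.6e-07). Of 17 tested genes of mitochondrial DNA upkeep and biogenesis, 8 fell and 2 rose. Tfam, which packages and transcribes mitochondrial DNA, fell by 2.17 (adjusted p = 1.9e-09), and the transcription factor Yy1 fell by 1.71 (adjusted p = 2.8e-10). Of 18 genes of pyruvate entry and the citric acid cycle, 6 fell and 5 rose. Pdhx, a component of the pyruvate dehydrogenase complex, rose by 1.65 (adjusted p = 1.1e-09), and Idh3g, a subunit of isocitrate dehydrogenase, fell by 0.55 (adjusted p = 0.00061). Of 7 tested exchangers of ATP, phosphate and protons, 4 fell and 1 rose. The phosphate carrier Slc25a3 fell by 0.80 (adjusted p = 5.8e-07), and the outer membrane channel Vdac2 rose by 0.94 (adjusted p = 3.5e-07).

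From primordial to primary, as deposited, these lists had 21 falls and 8 rises of 44 assembly factors, 9 and 6 of 19 biogenesis genes, 11 and 3 of 18 cycle genes and 5 and 1 of 7 exchangers, against 23.5% falls and 25.3% rises over all genes. With unmixed values the falls and rises were 15 and 7, 8 and 6, 10 and 5, and 5 and 2, against 18.3% and 23.4% of all genes. Ppargc1b, a coactivator of mitochondrial genes, rose by 2.95 on the log2 scale (adjusted p = 1e-12; unmixed 2.63). Surf1 rose by 1.36 in that step (adjusted p = 3.3e-12; unmixed 1.54), opposite to its later course. The isocitrate dehydrogenase subunit Idh3b fell by 1.84 (adjusted p = 8.9e-11), and by 1.38 after unmixing.

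Promoters of respiratory chain genes are known for sites of the factors NRF1, YY1 and the ETS family, among which GABPA, and of the estrogen-related receptors. RefSeq windows on GRCm38.p6, from 250 bases before to 50 after a gene's start, were found for 67 of the 83 genes (72 windows). The letters GCGCNTGCG of an NRF1 site, on either strand, were present in 33.3% of the 72 windows and in 6.31% of all 32851 windows of that length. CCGGAAG, an ETS core, was in 23.6% against 8.86%, AAGATGGCG (YY1) in 8.33% against 1.4%, and TCAAGGTCA (estrogen-related receptors) in 2.78% against 0.423%. No match of one motif overlapped a match of another in a member's window. By complex, NRF1 letters were in 22.6% of 31 complex I genes, 66.7% of 3 complex II genes, 60% of 5 complex III genes, 8.33% of 12 complex IV genes and 60% of 15 complex V genes. Of the members that rose from primary to large antral 5 of 6 with a window held them, of those that fell 6 of 28, and of those not called 12 of 30. These counts are small, and a match of letters is a description and not a site in use. Nrf1 itself rose by 0.28 on the log2 scale from primary to secondary (adjusted p = 0.014). That call was lost in the fit with unmixed primordial arrays (0.27, adjusted p = 0.36). Gabpa fell by 0.98 from small to large antral (adjusted p = 0.0011), and Yy1 by 1.71 from primary to large antral (adjusted p = 2.8e-10). The part of these factors in the members' changes was not tested.

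The stretches below show NRF1 letters in capitals with up to 25 bases on each side, in the direction of transcription, for 3 genes that rose during growth and 1 that fell most on leaving the primordial stage. The match ends 53 bases before the start in Cycs, 42 in Atp5k, 89 in Ndufs5 and 112 in Ndufa12. All of them lie on GRCm38.p6 and upstream of the annotated start: Cycs at chr6:50566597-50566655 (minus strand), Atp5k at chr5:108434416-108434474 (minus), Ndufs5 at chr4:123718250-123718308 (minus) and Ndufa12 at chr10:94198890-94198948 (plus).
Cycs: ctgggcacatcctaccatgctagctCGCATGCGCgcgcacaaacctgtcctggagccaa
Atp5k: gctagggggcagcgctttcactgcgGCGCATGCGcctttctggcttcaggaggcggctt
Ndufs5: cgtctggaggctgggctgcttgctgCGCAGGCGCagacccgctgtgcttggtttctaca
Ndufa12: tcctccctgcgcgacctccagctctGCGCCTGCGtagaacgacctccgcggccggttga
Cycs and Ndufs5 hold the letters as the reverse complement, and in Atp5k the complement also matches 1 base further on. The genes share these letters while their courses differ: Cycs, Atp5k and Ndufs5 rose from primary to large antral, and Ndufa12 was 1.01-fold from its primary level (adjusted p = 0.92). Uqcrc1 and Atp5g3, which fell over that interval and are not printed, hold NRF1 letters in their windows too.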

How the data were processed

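Oocyte RNA was measured on Affymetrix 430A and 430B arrays, 4 replicates a stage on each. The deposited values are linear signal intensity per probe set, made with MAS5 per the submitters' processing notes; no version is given in the sources used here. Their trimmed means, 151.1 to 154.5 on 430A and 144.4 to 147.6 on 430B, were already close. The number of arrays limits the precision.

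Here the 2% trimmed mean of every array was set to 500, and log2 was taken after adding 32. Probe sets with at least 4 arrays at 100 were tested with limma 3.58.1 in R 4.3.3 (lmFit, eBayes with a trend, two-sided), with Benjamini-Hochberg adjustment within an array type and calls at 0.05. Primordial to primary used all 20 arrays (15 residual degrees of freedom), the other 4 comparisons 16 arrays (12). A gene is represented by 1 probe set, 430A before 430B and then the highest mean signal. Symbols came from the platform annotation.

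Genes with full values were the 3 largest called rises and falls per comparison without overlap, fixed core subunits and isoform groups; from other lists up to 2 genes per comparison. Members, lists and the unmixing were chosen with earlier results of these data known. Alternatives were unmixed primordial values, quantile and same-median scaling, offsets of 16 and 100, no filter or one at 200, no variance trend, a replicate block, only the stages compared, all 20 arrays, the mean of a gene's probe sets, and leaving out replicates. For 3 small antral samples on 430B the protocol text names the age and pool size of the secondary stage. Titles were followed, and the fits were also repeated without these samples. On simulated arrays of 14924 probe sets, small to large antral, 41 of 50 changes of 1 and 17 of 50 of -0.5 on the log2 scale were called.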

Additional observations from a re-analysis of the deposited data

Results flagged for a closer look

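Among the genes given with full values, 190 groups of 4 arrays were examined on the log2 scale, and in 9 of them 1 array stood apart from the other 3 by Dixon's criterion. Chance gives about 1 in 20 groups, so a number of this size is near what chance gives. In the primordial stage, where replicates 2 to 4 share values with replicate 1, replicate 1 stood high for Cox6b2 (724.7) and low for Ndufa12 (5388.3). In the other stages the arrays were primary replicate 3 for Cox6a1 (7369.7, low), primary replicate 4 for Ndufa3 (2301.9, low) and secondary replicate 1 for Cyc1 (1557.2, high). At the antral stages they were small antral replicate 3 and large antral replicate 3 for Cox7b2 (28.3 and 46.0, both low), large antral replicate 1 for Atp5g1 (945.1, high) and large antral replicate 2 for Ndufa3 (1113.7, low). The 2 Cox7b2 arrays are on 430B and below the filter's level of 100.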

How the results depend on the processing

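Of 822 counts and medians computed under an alternative, 763 stayed within the limits used here. A count was judged by its ratio to the reported one and a median by the spread between arrays, and the sign was not checked. Some small medians within the limits changed sign, such as complex III from primary to large antral, -0.205 to 0.003 with 1 replicate left out. The unmixed primordial values moved most. From primordial to primary they gave 11 rises and medians of -0.496 for all members, -0.571 (complex I), 0.387 (II), -0.480 (III), -0.676 (IV) and -0.043 (V). Directions reversed for Atp5b (1.363), Atp5g1 (0.384), Atp5g2 (0.071), Ndufa3 (0.354), Ndufs5 (0.778) and Uqcrc1 (0.126). In each of these genes some unmixed primordial arrays lay above and others below the primary ones, so the fitted change averages unlike arrays. Fitted with the unmixed primordial arrays, primary to secondary had 1 rise and 4 falls, secondary to small antral 1 and 2, and small to large antral 0 and 1. Primary to large antral had 2 rises. Over all 15343 genes the rises and falls in these comparisons were 635 and 442, 390 and 737, 82 and 211, and 1868 and 1954. Scaling to the same median gave primordial to primary medians of -0.559 (all), -0.660 (I), 0.362 (II), -0.773 (III) and -0.430 (IV), and 3 rises from primary to secondary; no filter, no variance trend and all 20 arrays as deposited also gave 3. Quantile normalization gave -0.834 (III) and -0.433 (IV) from primordial to primary and 0.053 for complex V from small to large antral. The mean of all probe sets of a gene gave -0.047 (II), -0.696 (III) and -0.515 (IV) from primordial to primary, -0.055 for all members from secondary to small antral, and -0.209 (I) and -0.499 (II) from primary to large antral. Falls from small to large antral were 5 with only the stages compared or all 20 arrays.

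Leaving out 1 replicate at a time gave 3 to 5 rises and 13 to 19 falls from primary to secondary, 1 to 3 rises from secondary to small antral, 4 to 9 falls from small to large antral and 5 to 9 rises from primary to large antral. Complex III medians ran from -1.013 to -0.747 (primordial to primary), -0.054 to 0.122 (primary to secondary) and -0.180 to -0.054 (secondary to small antral). Complex V ran from -0.090 to 0.048 (small to large antral) and complex I from -0.348 to -0.230 (primary to large antral). The causes were not tested beyond this. Replicate numbers did not pair the samples: correlations of same-numbered samples ran from -0.11 to 0.132 on 430A and from -0.038 to 0.057 on 430B. With the replicate number as a block, rises and falls were 6 and 56, 5 and 17, 2 and 7, 1 and 9, and 9 and 35 in the order of the comparisons. Leaving out the 3 small antral samples on 430B changed no member count, median or named call beyond the limits used here, while over all genes 773 rose and 1276 fell from secondary to small antral in place of 916 and 1427. Signals near 100 limit Cox7b2 and Cox4i2, and no detection calls were used.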
